A study of Mus musculus with 4 samples.

Results

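The cells described here are the myelinating Schwann cells of mouse hindlimb muscle, 1896 cells of the 11058 that passed the filter in 2 libraries of GFP+ sorted cells. They were chosen by their transcripts, so the genes that chose them are described below and not tested. A cell was kept if it held more than 200 detected genes and under 10% mitochondrial counts. It was then taken as a member if it held at least 4 of 8 myelin genes (Ncmap, Cldn19, Mag, Mal, Pllp, Prx, Egr2 and Fxyd3), if these made up at least 0.1% of its counts, and if at most 1 of 6 perineurial genes (Cldn1, Krt19, Moxd1, Slc6a13, Lgals7 and Crabp2) was detected. The wild-type library gave 1130 members and the Sod1KO library 766, of 18153 filtered cells in all 4 libraries of the series.

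Myelinating Schwann cells are the glia of peripheral nerve that each wrap 1 stretch of 1 axon in a multilayered myelin sheath. The transcription factors Sox10 and Egr2 hold the myelin programme in place, axonal neuregulin read by ErbB receptors sets how much myelin is made, and the sheath needs a large supply of cholesterol and galactolipid. After axon injury these cells can turn down myelin genes and turn on a repair programme of growth factors, adhesion molecules and chemokines.

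The study asked how Schwann cells resident in muscle differ when neuromuscular contacts are lost. It compared S100GFP-tg mice that were wild type (WT) with S100GFP-tg mice lacking the superoxide dismutase gene Sod1 (S100GFP-tg Sod1-/-, the libraries labelled Sod1KO), all 2 months old. Both genotypes carry the reporter, in which the S100B promoter drives GFP, and non-Schwann cells also entered the GFP+ gate. Muscle came from the lower hindlimb (tibialis anterior, gastrocnemius), was pooled over 4 males of a genotype and digested, and GFP+ and GFP- cells that excluded propidium iodide were sorted and sequenced by a droplet method that reads the 3′ ends of transcripts. Each genotype and gate is therefore 1 library with no replicate, and genotype, pool, sort and library cannot be told apart. No test between genotypes was possible. Both libraries' values are printed, and the 95% intervals hold counting error alone.

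Sod1 itself was read first, since it is the gene deleted. Levels are given as CPM, a gene's unique molecular identifiers (UMIs, counted transcripts) scaled to 1000000 UMIs of the cells summed. Sod1 stood at 78.8 CPM in WT members (95% interval 72.8 to 85.1) and 68.4 CPM in Sod1KO members (62.3 to 74.8). The log2 ratio of Sod1KO over WT was -0.21 (-0.38 to -0.03) in members, 0.04 in nonmyelinating Schwann cells and -0.09 in the 564 WT and 710 Sod1KO GFP+ cells in which no myelin rule gene or lineage marker was detected, called cells without Schwann markers. None of the sources used here gives the deleted part of the gene, and a 3′ tag outside that part checks nothing. Genotype therefore rests on the label, and the text below speaks of the library labelled Sod1KO.

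Total counts were 81320146 UMIs in the WT GFP+ library and 105954116 in the Sod1KO GFP+ library, and the filter kept 4767 and 6291 cells. Members had a median of 6302 UMIs in WT and 6480 in Sod1KO, about equal, and mitochondrial shares of 4.97% and 5.86%. Between 1 and 13 barcodes were shared by any pair of the 4 libraries, and no shared barcode was a member in both. Deposited barcodes were used without doublet removal. Of the members, 52 in WT and 75 in Sod1KO held at least 4 detected markers of another cell type. Those cells carried 12.0% of the members' UMIs in WT and 25.1% in Sod1KO, with median depths of 16743 and 21631 UMIs. Summed over all members, the 8 fibroblast markers stood at 3483 CPM in WT and 6456 in Sod1KO, and the 7 tenocyte markers at 641 and 1762. Without those cells the same sums were 775 and 747, and 50.3 and 71.9. Members with fewer than 4 markers of every other type counted are called single-type members, 1078 in WT and 691 in Sod1KO. The 9 types counted left out nonmyelinating Schwann cells, whose markers can remain in these members. Each ratio is therefore given again for single-type members. It is also given for the 1028 and 608 of these in which the 8 myelin genes made up at least 0.5% of UMIs, called strong-myelin members. Both subsets were defined after the data were seen. The strong-myelin cut uses the 8 rule genes, so it also acts on the ratios of those genes. Likewise the single-type cut acts on the ratios of the other cell types' markers.

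Members made up 23.7% of the filtered GFP+ cells in WT (22.5 to 24.9, exact Clopper-Pearson) and 12.2% in Sod1KO (11.4 to 13.0). The difference was -11.5 percentage points (-13.0 to -10.1). Among the Schwann cells of 3 kinds (members, nonmyelinating cells, and cells with myelin and perineurial genes together) they were 65.0% of 1739 in WT and 51.3% of 1493 in Sod1KO. A share of sorted cells depends on digestion, on the gate and on how many other GFP+ cells were caught, and their part in this difference was not tested.

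Most members were well inside the rule. Of the members, 86.9% in WT and 81.2% in Sod1KO held 7 or 8 of the 8 genes. At the edge of the rule, the 18 WT and 26 Sod1KO members with exactly 4 of them had median myelin shares of 0.297% and 0.189% of UMIs, while the 77 and 147 cells with 3 had 0.0232% and 0.0332%. The 0.1% limit of the rule sets part of this gap, since all 35 WT and 111 Sod1KO cells with 4 of the genes had medians of 0.103% and 0.0410%. Over all members the median share was 0.942% in WT and 0.941% in Sod1KO. A group of 37 WT and 176 Sod1KO cells held at least 4 of the genes but fell under the 0.1% limit. The label was checked with Sox10, which the rule did not use and which marks the whole Schwann lineage: it was detected in 86.9% of WT members and 85.8% of Sod1KO members, and in no UMI of the cells without Schwann markers, a group defined by lacking it. At the edge of the rule Sox10 did not separate members from other cells: it was detected in 44.4% of WT and 65.4% of Sod1KO members with 4 of the genes, and in 55.8% and 64.6% of cells with 3.

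**Figure D1:**
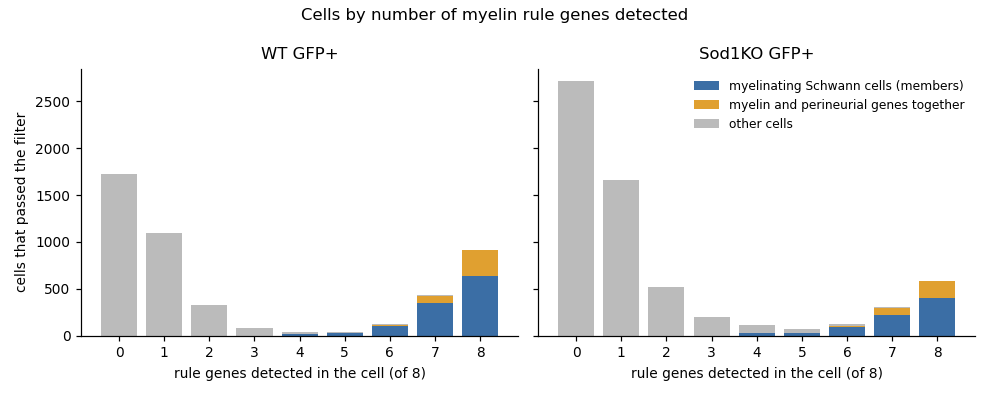
Number of filtered cells (vertical axis) by how many of the 8 myelin genes of the rule were detected in the cell (horizontal axis), for the WT GFP+ library and the Sod1KO GFP+ library. Bars are split into members, cells with myelin and perineurial genes together, and all other cells. Most members stand at 7 or 8 genes, 982 cells in WT and 622 in Sod1KO.

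The proteins of compact myelin were abundant in both libraries, and most had lower values in Sod1KO members. Pmp22, a membrane protein whose dose must be right for normal myelin, stood at 6915 CPM in WT members (6858 to 6972) and 5157 in Sod1KO members (5103 to 5211). Its log2 ratio was -0.42 in all members, -0.25 in single-type members and -0.07 in strong-myelin members. The difference was thus smaller in the sets that left out cells with many markers of other cell types and cells with weak myelin expression. Mbp, which zips the cytoplasmic faces of the membrane together, was 5157 (5108 to 5207) and 3484 (3440 to 3529), with ratios of -0.57, -0.42 and -0.25. With only the 576 WT and 254 Sod1KO members that held more than 500 genes and under 5% mitochondrial UMIs, the ratios were -0.70 for Pmp22 and -0.89 for Mbp. Cd9, a tetraspanin, had ratios of -0.54, -0.41 and -0.26.

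Pmp2, a fatty acid binding protein of compact myelin, went the other way. It stood at 49.8 CPM in WT members (45.1 to 54.8) and 111 in Sod1KO members (104 to 120), a log2 ratio of 1.16 (0.99 to 1.34). The ratio was larger in single-type members, 1.42, and in strong-myelin members, 1.5. With only members of more than 500 genes and under 5% mitochondrial UMIs it was 0.73, under 2-fold. Pmp2 was the 1 gene of the 8 tested compact myelin genes that was at least 2-fold higher, and none was 2-fold lower. Beside this, 4.62% of the 11565 genes with at least 50 UMIs were at least 2-fold higher in Sod1KO members and 1% were at least 2-fold lower. The same shares stand beside each later Sod1KO over WT count in all members. The median log2 ratio of the list was -0.45, and -0.29 in single-type members, against 0.01 over all genes tested.

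Genes of noncompact myelin, which line the paranodes and the channels through the sheath, differed by under 2-fold over all members. None of 15 was 2-fold higher or lower, and their median was -0.12 (0.00 in single-type members). Intervals lay below 0 for 9 of them and above 0 for 2. Mag, an adhesion protein of the inner wrap, was 363 CPM in WT and 338 in Sod1KO, with ratios of -0.11, 0.02 and 0.17 in the 3 sets. Cldn19, a tight-junction protein, was 863 and 742, and its ratio was 0.07 in strong-myelin members. Gjb1, the connexin of the myelin incisures, was 107 and 90.9, and its ratio there was 0.02. Ncmap, a small myelin membrane protein, was 1464 and 1448. Kcna1, a potassium channel subunit, was 1955 and 1345, with ratios of -0.54, -0.42 and -0.36. Of these 5 genes Kcna1 kept a lower value in all 3 sets. Mag, Cldn19 and Ncmap are rule genes, so the strong-myelin cut acts on their own ratios. Members with more than 500 genes and under 5% mitochondrial UMIs gave larger differences. There the ratios were -0.87 for Kcna1, -0.73 for Gjb1, -0.63 for Cldn19 and -0.46 for Ncmap.

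The outer face of the sheath is held to the basal lamina by periaxin (Prx), dystrophin-related protein 2 (Drp2) and dystroglycan. None of the 16 genes of this complex, its laminins and receptors was 2-fold higher or lower, and the median was -0.03. Drp2 was the member with the largest difference on the low side, 1112 CPM in WT (1090 to 1135) and 601 in Sod1KO (583 to 620). Its log2 ratio was -0.89 (-0.94 to -0.83) and stayed at -0.53 in strong-myelin members. At 2000 UMIs per cell, Drp2 was detected in 84.8% of WT members and 67.5% of Sod1KO members. Prx, its binding partner, was 1233 and 946 with a ratio of -0.05 in strong-myelin members, a set cut on Prx and the other rule genes. Lama2, the laminin chain of the Schwann cell basal lamina, was 175 and 325 with a ratio of 0.89 (0.80 to 0.99), which was 0.59 in strong-myelin members. With only members of more than 500 genes and under 5% mitochondrial UMIs, Drp2 was at -1.39 and Lama2 at 1.19, both past 2-fold.

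The transcription factors of the lineage had a median log2 ratio of -0.01 over 18 genes, with none 2-fold higher or lower. Egr2, which drives myelin genes and was itself part of the rule, was 336 CPM in WT and 207 in Sod1KO, with ratios of -0.70, -0.58 and -0.44. Sox10 was 379 and 313 with ratios of -0.27, -0.14 and -0.13. Pou3f1, a factor of the promyelinating stage, was 1053 and 808 and its ratio was -0.44 in strong-myelin members. Sox2, which opposes myelination, was low in both, 36.1 and 52.5, with ratios of 0.54, 0.62 and 0.39. Jun, the factor that opens the repair programme, was 2608 and 2582, a ratio of -0.01 (-0.04 to 0.01).

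**Figure D2:**
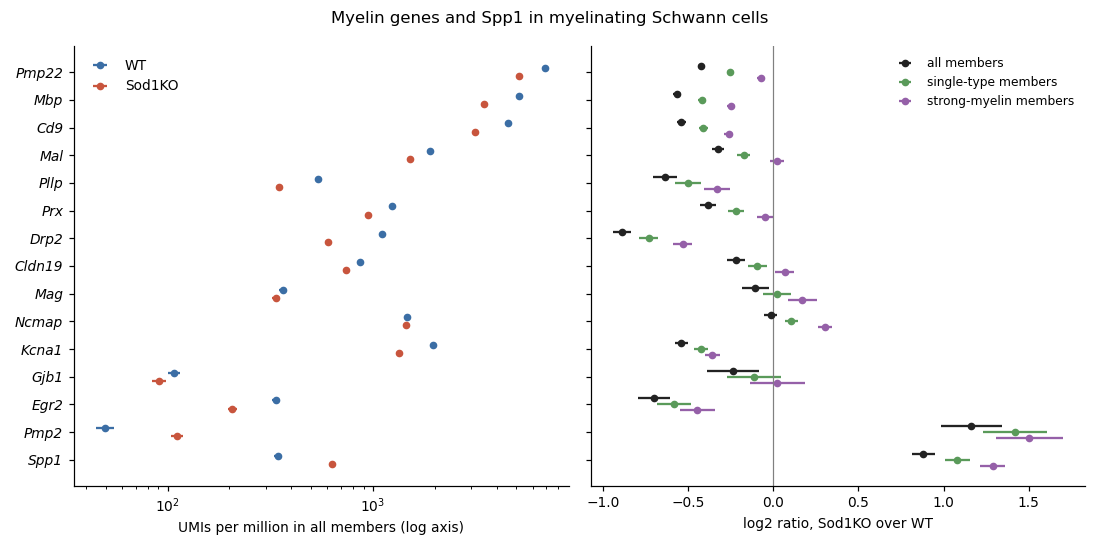
Left, CPM in all members for myelin genes and Spp1 (log axis), with WT and Sod1KO as separate points and bars for exact 95% counting intervals. Right, log2 ratio of Sod1KO over WT in all members, single-type members and strong-myelin members, each with its interval. The ratios of Pmp22 move from -0.42 towards 0 across the 3 sets, while those of Pmp2 and Spp1 are above 0 in each.

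Lipid supply genes were near even between the libraries. Of 20 genes of cholesterol synthesis and uptake none passed 2-fold, with a median of -0.17 (-0.02 in single-type members). Hmgcs1, an early enzyme of the pathway, was 405 CPM in WT and 363 in Sod1KO. Insig1, which holds the pathway back when sterol is plentiful, was 103 and 64.3 with ratios of -0.68, -0.59 and -0.42. Of 20 genes for fatty acids, sphingolipids and galactolipids none passed 2-fold either, with a median of -0.13 (-0.07). Ugt8a, the enzyme that makes galactosylceramide, was 357 and 259, and its ratio was -0.14 in strong-myelin members.

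Spp1, which encodes the secreted glycoprotein osteopontin, was higher in the Sod1KO library. Members held 344 CPM in WT (331 to 357) and 634 in Sod1KO (615 to 653), a log2 ratio of 0.88 (0.81 to 0.95). The ratio was 1.08 in single-type members and 1.29 in strong-myelin members. At 2000 UMIs per cell Spp1 was detected in 22.2% of WT members (19.8 to 24.8) and 35.1% of Sod1KO members (31.6 to 38.6). The share in cells without Schwann markers was 2.22% and 2.54% at the same depth. The cells kept decided this value: with only members of more than 500 genes and under 5% mitochondrial UMIs, 2 limits changed together, the Spp1 ratio was -0.03. A few cells carried much of it, since the 10% of single-type members with the most Spp1 held 78.0% of its UMIs in WT and 65.3% in Sod1KO. Of its receptors, Cd44 was 20.2 and 86.1 CPM, with ratios of 2.09, 2.36 and 1.48. Itgb3, an integrin subunit, was 4.27 and 12.6, but its ratio was 0.00 in strong-myelin members. Of the 11 genes in the list of osteopontin, its receptors and TGF-beta, 2 were at least 2-fold higher and none lower.

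Cxcl14, a chemokine, had a larger ratio in single-type members than in all members. Over all members it stood at 115 CPM in WT (107 to 122) and 408 in Sod1KO (393 to 423), a log2 ratio of 1.83. In WT, 83.1% of its UMIs lay in the 52 members with markers of other cell types, and 1 cell held 36.0%. In single-type members it was 22 in WT and 384 in Sod1KO, a ratio of 4.12 (3.89 to 4.36), and in strong-myelin members the ratio was 3.78. Col1a1, a fibroblast marker and part of the cut that set these cells, was 424 and 451 in the same single-type members. At equal depth, 2.68% of WT members and 16.7% of Sod1KO members held a Cxcl14 UMI. Cells without Schwann markers, which include fibroblasts, stood at 10.8% and 15%. Under the stricter limits on genes and mitochondrial counts the Cxcl14 ratio over all members was 0.52. Of the 14 tested chemokine and immune genes 4 were at least 2-fold higher in all members, but in single-type members 1 was higher and 2 were lower. Beside these, 2.5% of the 10637 genes tested in single-type members were at least 2-fold higher and 1.05% at least 2-fold lower. The list genes, however, were those with at least 50 UMIs in all members. Of the 11565 genes chosen in that way, 389 were at least 2-fold higher in single-type members and 227 at least 2-fold lower. The single-type counts of the other lists were taken in the same way.

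Many genes of the repair programme had higher values in the library labelled Sod1KO. Of 25 listed genes 17 had at least 50 UMIs. Of these 9 were at least 2-fold higher and none lower, beside 4.62% and 1% of all 11565 genes tested. The list was chosen with earlier results of these data known, so this count is a description. The median log2 ratio of the list was 1.28 (1.08 in single-type members). It was 0.89 in nonmyelinating Schwann cells, -0.08 in cells without Schwann markers and 0.75 in GFP- cells. Levels were low, and apart from Jun, Atf3 and Spp1 no gene of the list stood above the 111 CPM of Ncam1, an adhesion molecule, in Sod1KO. Runx2, a transcription factor, was 3.54 CPM in WT (2.37 to 5.08) and 55.3 in Sod1KO (49.9 to 61.2), a ratio of 3.97 that was 2.41 in strong-myelin members. Ngfr, the p75 neurotrophin receptor, was 2.20 and 15.8, with ratios of 2.85, 3.37 and 2.40. Gap43, a growth-cone protein, was 0.854 and 8.05. Lgals3, a galactose-binding lectin, was 10.1 and 95.4 with a ratio of 3.24, and 2 cells held as many Sod1KO UMIs as all others. Without the 1% of members with the most Lgals3 in each library, its ratio was 1.78. For Lgals3 the share of Sod1KO members with a UMI at equal depth was 2.12%, below the 15.2% of cells without Schwann markers. Gdnf, a trophic factor for motor neurons, had 0 UMIs in WT members and 4.54 CPM in Sod1KO members. With a floor of 3 UMIs for WT, that is a log2 ratio of at least 3.63. Atf3, a stress and injury factor, was even, 678 and 651.

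A small set of cells carried most of the UMIs of some of these repair genes. With each single-type member thinned to 2000 UMIs, and leaving out Jun, Atf3 and Spp1, 5 of 1068 WT cells (0.468%) and 25 of 678 Sod1KO cells (3.69%, 2.40 to 5.40) held at least 3 of the other 22 listed genes. Cells with exactly 2 were 38 in WT and 22 in Sod1KO. The 25 cells were chosen on these genes, so what follows is a description. They held 10.1% of the UMIs of the Sod1KO single-type members but 77.4% of their Runx2 UMIs, 92.5% of Lgals3, 76.9% of Gap43 and 72.7% of Ngfr. They also held 81.5% of Gdnf, 54.0% of Btc and 51.6% of Cd44, while no share was taken for Ncam1. They held 1.04% of Spp1 and 30.3% of Cxcl14. Mbp stood at 1320 CPM in them (1223 to 1423) and 4526 in the other Sod1KO single-type members (4465 to 4588). The median depth of the 25 cells was 15896 UMIs, against 6167 in the others, and 20 of the 25 had a myelin share under 0.5%. In 21 of them at least 2 markers of nonmyelinating Schwann cells were detected, as in 57 of the other 653 Sod1KO single-type members. Ngfr, Gap43 and Btc are in both gene sets, so the choice of the cells acts on this count. Of the 25 cells, 6 had a doublet score that the doublet alternative would remove. Whether they are single cells or pairs of cells was not tested.

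**Figure D3:**
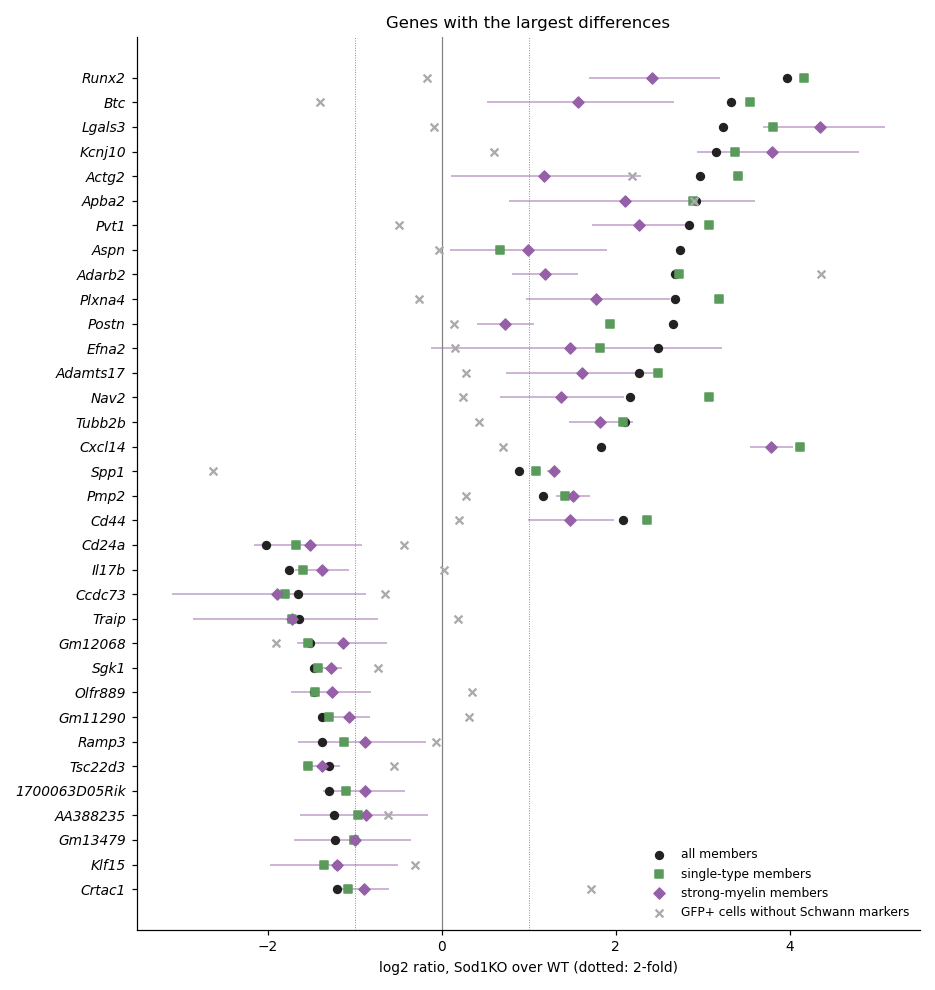
Log2 ratio of Sod1KO over WT for the 15 highest and 15 lowest genes named by the rule on size, and for Cxcl14, Spp1, Pmp2 and Cd44, in all members, single-type members, strong-myelin members (lines for their 95% intervals) and GFP+ cells without Schwann markers, with dotted lines at 2-fold. Runx2 is highest at 3.97 and Cd24a lowest at -2.02 over all members, and Aspn is a gene whose ratio shrinks from 2.74 to 0.67 in single-type members.

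In the neuregulin and ErbB axis Erbb3 and Adgrg6 were near even between the libraries. Erbb3, the neuregulin receptor of Schwann cells, was 146 CPM in WT and 163 in Sod1KO. Adgrg6, an adhesion receptor needed to start myelination, was 147 and 181. Btc, a ligand of the EGF family, was 2.07 and 20.8, with ratios of 3.33, 3.54 and 1.56. Of 14 genes in this list 4 were at least 2-fold higher (3 in single-type members) and none lower. Erbb4, a receptor, was 3.54 and 12.4, with ratios of 1.81, 2.03 and 1.86. Egfr and Nrg1 were also among those 4, but their values turned with the cells used. Egfr had a ratio of 1.87 in all members and -0.92 in single-type members, and Nrg1 had 2.26 in all members and -0.92 in strong-myelin members.

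Among the nonmyelinating genes, Kcnj10, a potassium channel of glia, stood out in members. It was 4.03 CPM in WT (2.77 to 5.65) and 35.9 in Sod1KO (31.5 to 40.6), with ratios of 3.16, 3.37 and 3.80. In Sod1KO 85 members held a UMI of it, and 20 cells held as many of its UMIs as all others. Kcnj10 is a nonmyelinating marker, which the single-type cut did not count. At equal depth 0.625% of WT members and 4.12% of Sod1KO members held a UMI, against 0.195% of Sod1KO cells without Schwann markers. Of the 12 tested genes of this list 2 were at least 2-fold higher, the other being Ngfr, with a median of 0.53 (0.50). Tubb2b, a tubulin of growing neurites and glia, was 17.4 and 75.2 with ratios of 2.11, 2.09 and 1.82. Pvt1, a long noncoding RNA, was 11.2 and 80.5 with ratios of 2.84, 3.07 and 2.27. Ccnd1, a cyclin of the first phase of the cell cycle, was 31.3 and 104 with ratios of 1.73, 1.95 and 1.04, and was the 1 of 7 tested cell cycle genes past 2-fold.

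Matrix genes had larger ratios in all members than in single-type members. Of 13 collagens 5 were at least 2-fold higher over all members, with a median of 0.95, but none was in single-type members, where the median was 0.49. Col1a1 had a ratio of 1.04 in all members and 0.09 in single-type members, and Col3a1 had 1.59 and 0.52. Both are fibroblast markers used to set the single-type members, so that cut acts on their ratios and on the list median. Aspn, a small matrix proteoglycan, was 17.9 CPM in WT and 120 in Sod1KO, and 96.7% of its Sod1KO UMIs lay in the 75 members with markers of other cell types. Postn, an adhesive matrix protein, had ratios of 2.66, 1.93 and 0.73. Col28a1, a collagen of peripheral glia, was instead 264 and 345 with ratios of 0.39, 0.49 and 0.64.

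Among the trophic factors, Cntf and Dhh differed little and Il17b was lower. Cntf, the ciliary neurotrophic factor, was 380 CPM in WT and 284 in Sod1KO, and its ratio was -0.05 in strong-myelin members. Dhh, the hedgehog ligand that organises the nerve sheath, was 157 and 150. Il17b, a cytokine, was much lower, 63.5 in WT (58.2 to 69.2) and 18.7 in Sod1KO (15.6 to 22.3), with ratios of -1.76, -1.60 and -1.38. At equal depth Il17b was detected in 10.0% of WT members and 4.25% of Sod1KO members, and in at most 0.195% of cells without Schwann markers. Fgf5, a growth factor, had 5 UMIs in WT members and 51 in Sod1KO members, a ratio of 3.61 (2.30 to 5.30). Of 10 tested factors Fgf5, Mdk, Igf1 and Ptn were at least 2-fold higher, with ratios of 1.71 for Mdk, 1.09 for Igf1 and 1.23 for Ptn, and Il17b was the 1 that was 2-fold lower. In single-type members 2 factors were at least 2-fold higher and 1 lower.

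**Figure D4:**
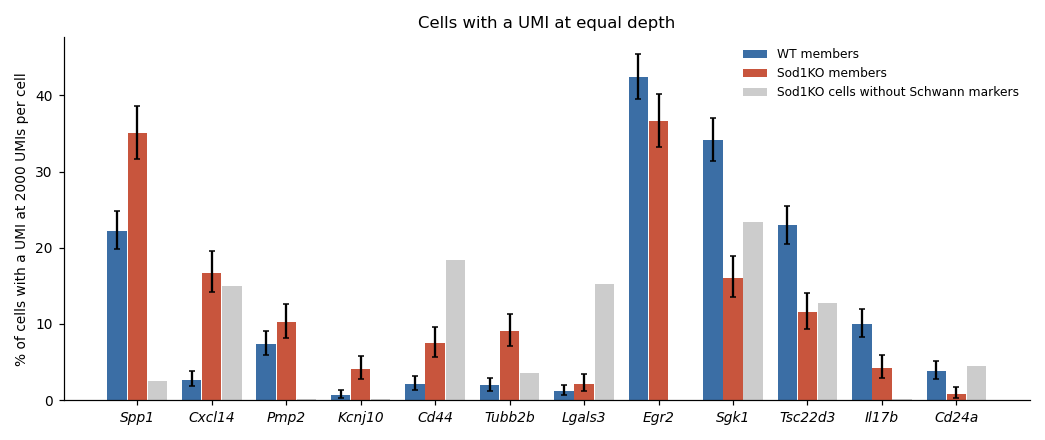
Share of members with at least 1 UMI of each gene after every cell was thinned to 2000 UMIs (vertical axis, percent), for WT and Sod1KO members with exact 95% intervals, beside Sod1KO cells without Schwann markers. Spp1 stands at 22.2% in WT and 35.1% in Sod1KO, while Lgals3 in Sod1KO members is below its share in cells without Schwann markers.

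Genes that respond to glucocorticoids were mostly lower in the library labelled Sod1KO, in members and in the other cells examined. Of 11 tested genes none was 2-fold higher and 3 were at least 2-fold lower (4 in single-type members), with a median of -0.63 in members, -0.88 in single-type members, -0.71 in nonmyelinating Schwann cells, -0.55 in cells without Schwann markers and -0.34 in GFP- cells. Sgk1, a kinase that acts on ion channels, was 303 CPM in WT (291 to 315) and 109 in Sod1KO (102 to 117), with log2 ratios of -1.47, -1.42 and -1.28. It was detected at equal depth in 34.1% of WT members and 16.1% of Sod1KO members. The ratio of Sgk1 was -0.73 (-0.86 to -0.60) in cells without Schwann markers. Tsc22d3, the leucine zipper protein GILZ, was 140 and 56.6 with ratios of -1.30, -1.54 and -1.38, and Klf9, a zinc-finger factor, was 641 and 310 with ratios of -1.05, -1.01 and -0.94. Mt1, a metal-binding metallothionein, was 4862 and 2512, a ratio of -0.95. Fkbp5, a chaperone of the glucocorticoid receptor, was even, 10.0 and 11.9, with a ratio of 0.25 (-0.22 to 0.71).

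The 250 bases upstream of the gene start were searched in RefSeq promoters (GRCm38.p6) on both strands for the palindrome that the glucocorticoid receptor binds, AGAACA and TGTNCT with any 3 bases between them. Among the 11 list genes with a promoter, Sgk1 held it, as did 0.0444% of 27025 genes. The window of Sgk1, on the plus strand at chr10:21993640-21993889, is printed because its gene had the lowest ratio of the list over all members (Tsc22d3 was lower in the 2 subsets). Capitals mark the match, which begins 189 bases before the start. It describes letters only and is not evidence of binding.

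Sgk1 promoter: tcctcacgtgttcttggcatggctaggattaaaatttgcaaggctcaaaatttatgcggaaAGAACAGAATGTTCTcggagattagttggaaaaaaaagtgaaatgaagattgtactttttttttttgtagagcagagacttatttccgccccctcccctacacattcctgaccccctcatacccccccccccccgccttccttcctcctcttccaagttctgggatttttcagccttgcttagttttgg

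None of the 8 myelin rule genes held that palindrome or the Egr2-type motif GCGTGGGCG, which 0.622% of all genes held. Mag held the Sox-type motif ACAAAG, present in 18.6% of all genes.

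Other stress genes gave no common direction. Their counts stand beside 4.62% higher and 1% lower over all 11565 genes tested. Of 20 immediate early and heat shock genes 3 were at least 2-fold higher and 1 lower, with a median of -0.08. Fos was 6772 CPM in WT and 4717 in Sod1KO, and Nr4a1 was 1120 and 549, a ratio of -1.03. Hspa1b, an inducible chaperone, was 25.1 and 59.0, a ratio of 1.23. Of 27 antioxidant genes 1 was 2-fold higher, Gpx3, whose ratio was -0.01 in single-type members, and the median was 0.03. Of 13 unfolded protein and integrated stress genes Ddit4 was the 1 past 2-fold, 41.5 and 19.3, and the median was -0.16. Of 15 clock genes 1 was higher and 1 lower, with a median of -0.06, and of 14 glycolysis and lactate genes none passed 2-fold, with a median of 0.00. Of 6 nuclear noncoding RNAs Pvt1 was the 1 that passed 2-fold, and the median was 0.43. Within that list Malat1 was lower, 34259 and 22074, and Gm42418, a locus that takes up ribosomal RNA reads, was higher, 28958 and 50744. Malat1 had ratios of -0.63 in members and -0.30 in cells without Schwann markers, and Gm42418 had 0.81 and 0.79. Fth1, an iron storage subunit, was 8855 and 4923, a ratio of -0.85, against -0.06 in cells without Schwann markers.

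**Figure D5:**
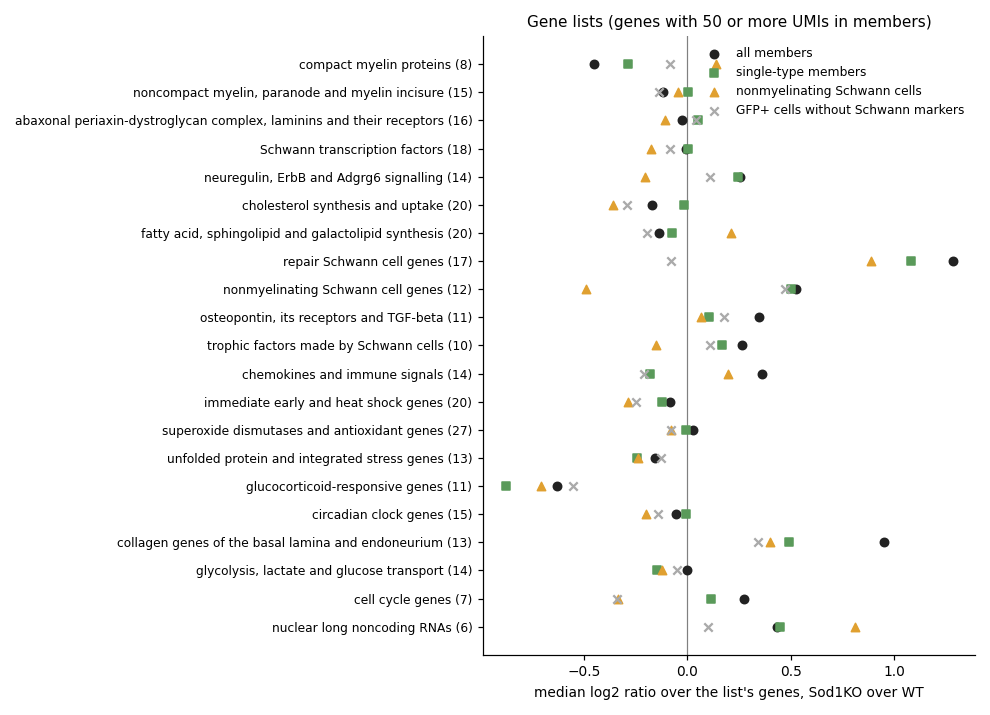
Median log2 ratio of Sod1KO over WT for each gene list (number of genes with 50 or more UMIs in brackets) in members and in the other cell sets of the legend. The repair list is highest at 1.28 in all members and the glucocorticoid list lowest at -0.63, while the collagen list moves from 0.95 in all members to 0.49 in single-type members.

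Against the nonmyelinating Schwann cells of the same libraries, 238 in WT and 465 in Sod1KO, members differed in many genes. Those cells held Sox10, at least 2 of 10 nonmyelinating markers and at most 1 of the 8 myelin genes. Of 11020 genes 7.11% were at least 2-fold higher in members in both libraries and 9.25% at least 2-fold lower. These groups were set by their own genes, so the values are a description. Of 20 cholesterol genes 13 were higher in members in both libraries, with medians of 1.43 in WT and 1.39 in Sod1KO, and no list gene was lower. Of 20 fatty acid and galactolipid genes 9 were higher. On the log2 scale Cntf was 3.24 higher in WT members and 3.47 higher in Sod1KO members, and Dhh 3.61 and 2.55. Spp1 was higher by 8.75 and 8.40, and Mt3, a metallothionein, by 8.85 and 7.89. Of 11 cell cycle genes 6 were lower and 3 higher in members in both. The macrophage markers stood at 4344 CPM in the WT nonmyelinating cells and 673 in the Sod1KO ones, against 97.3 and 168 in members. In the median nonmyelinating cell they stood at 2344 CPM in WT and 0 in Sod1KO. In the WT ones 2 of these 8 markers had no UMI, and which markers gave the sum was not tested. The erythroid markers stood at 4150 and 3550 CPM in the nonmyelinating cells, against 30.7 and 26.5 in members. Fibroblast markers went the other way in Sod1KO, 3581 against 6456. Which cells gave the cell cycle values was not tested.

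The genotype ratios of some genes differed in size between members and nonmyelinating cells, a difference that was not tested. Runx2 was higher in Sod1KO in both, by 3.97 and 5.74, as was Ngfr, by 2.85 and 5.27. Kcnj10 had 3.16 in members and 0.23 in nonmyelinating cells, Cd44 had 2.09 and 0.04, and Cxcl14 had 1.83 and -0.76. Kcnj10 and Ngfr are among the markers used to choose the nonmyelinating cells, so that choice acts on their ratios in those cells. For these genes the values describe the chosen cells only.

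Cells that held myelin and perineurial genes together, 371 in WT and 262 in Sod1KO, had a median depth of 18757 and 21224 UMIs, well above that of members. Of 11274 genes 3.86% were at least 2-fold higher in members than in them in both libraries, and 8.36% at least 2-fold lower. Compact myelin genes were higher in members, with median log2 ratios of 1.28 in WT and 1.05 in Sod1KO. Cholesterol genes were higher by 0.64 and 0.38. The Spp1 ratio of Sod1KO over WT in these cells was 1.40 and that of Pmp2 was 1.86.

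Members also varied among themselves within a library. Over all members the genes with the highest variance over mean, after thinning to 2000 UMIs, were led by Col1a1, Col1a2 and Dcn, which mark fibroblasts. In single-type members the 15 highest included Gm42418, Malat1, Mt1, Csmd1, Apoe, Fos, Fth1, Igfbp6, Spp1, Nkain2, Cxcl10, Atf3, Pmp22 and Jun, and 5 of the 15 were shared with the first 15. Pmp22 had a variance 4.12 times its mean in WT and 5.27 times in Sod1KO, against a median of 1.07 over all 5244 genes. Across single-type members of a library, Pmp22 varied with Mbp (Spearman 0.35 in WT, 0.52 in Sod1KO). Fos went with Jun (0.49 and 0.63). Apoe, a lipid carrier, was uneven, with 84.4% of its WT UMIs and 83.5% of its Sod1KO UMIs in the top 10% of cells, and it went against Pmp22 (-0.20 and -0.27). These correlations are over 1068 and 678 cells that share a library and a fixed depth.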

How the data were processed

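Single-cell RNA was read from 4 mouse muscle libraries (GFP+ and GFP-, WT and Sod1KO), 1 per group. The authors deposited filtered matrices of UMI counts, raw whole numbers per gene and cell. The submitters' processing notes name Cell Ranger 7.1.0, Seurat 4.30 and mm10. The study's methods name another genome release too, so no coordinate was taken from the matrices. Members and gene lists were chosen with earlier results of these data known. UMIs were summed over members and scaled to 1000000. Ratios have conditional binomial intervals, levels Poisson intervals and shares Clopper-Pearson intervals, all counting error only. A gene was tested for 2-fold with at least 50 UMIs over both libraries, and a 0 was set to 3 UMIs. No p-value was computed, since a group is 1 library. Named genes were the 15 highest and 15 lowest ratios with detection in 5% of members of 1 library and no marker of another type. In the library where such a gene was higher, its CPM in members was at most 2-fold below that of all other cells. Then came, per list, the 4 most abundant and 3 most different genes. Further ones were the 15 highest and 15 lowest against nonmyelinating cells, the 15 most variable, Sod1 and the rule genes. Sox10, Fkbp5, Fth1, Gdnf, Erbb4, Igf1, Ptn and the variable genes of single-type members were named after their values were seen. Doublets were left in. A Scrublet score removed 38 WT and 54 Sod1KO members in an alternative. The code was tested on simulated data. Tools were scanpy 1.11.5, scipy 1.17.1, numpy 2.4.6, pandas 2.3.3, and matplotlib 3.10.9 under Python 3.11.15. Some genes the rule names are not reported here.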

Additional observations from a re-analysis of the deposited data

Results flagged for a closer look

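The GFP- libraries also held cells that met the rule, 7 in WT (0.42% of 1665 filtered cells) and 5 in Sod1KO (0.0921% of 5430). They were picked out because they lie outside the GFP+ gate. Of the 7 cells 4, and of the 5 cells 2, held at least 4 markers of another cell type.

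For Pvt1, Aspn and Crtac1, among the genes with the largest ratios in members, the ratio of Sod1KO over WT in members and in another cell group lay on opposite sides of 0, with 1 library per genotype, and the difference was not tested. Pvt1 had a log2 ratio of 2.84 in members and -0.49 in cells without Schwann markers. Aspn had 2.74 in members and -0.38 in nonmyelinating Schwann cells. Crtac1, a matrix protein, had -1.21 in members and at least 1.72 in cells without Schwann markers, where WT had 0 UMIs and the value rests on the floor of 3.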

How the results depend on the processing

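No paired analysis was possible because each group is 1 library and no replicate could be paired or left out. For member cells the difference in share was -11.5 points. It lay between -12.1 and -10.5 under the other limits on cells, and was -14.6 when the limits were applied to cells thinned to 2000 UMIs.

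The counts of genes at least 2-fold higher and lower in Sod1KO members were 534 and 116. They were 312 and 200 with ambient RNA subtracted, 121 and 54 in members thinned to 2000 UMIs, 246 and 28 with at least 200 UMIs, and 1729 and 726 with no filter on UMIs. Lower genes numbered 185 with more than 500 genes and under 5% mitochondrial UMIs, and 72 without the 1% of members highest for each gene. Chosen after seeing the data, single-type members gave 266 higher genes, strong-myelin members 94, and members with a myelin share of at least 0.5% gave 122 higher and 70 lower. In single-type members 5 of the 15 most variable genes were shared. The cause of these shifts was not tested.

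Of 2287 values of 164 named genes over 14 alternatives, 1452 stayed within the interval of the main value, 820 moved and 15 changed sign. The sign changes in single-type members were Egfr -0.92, C3 -0.50, Il6 -0.96, Gpx3 -0.0074 and Npas2 -0.50. In members with a myelin share of at least 0.5% they were C3 -1.31, Il6 -1.05 and Npas2 -0.20. In strong-myelin members they were Nrg1 -0.92, Egfr -0.64, C3 -1.14, Il6 -1.0 and Npas2 -0.15. Il6 was -0.10 without its highest 1% of members, and Col1a1 was -8.14 with ambient RNA subtracted.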
